A study of Mus musculus with 8 samples.

Results

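The collagen genes of the mouse were followed in bulk RNA from whole pancreas at postnatal day 42, in 2 engineered genotypes on a C57BL/6 background. Members were all protein-coding genes of the GENCODE M21 annotation (mouse genome GRCm38) whose symbol is Col, a type number, the letter a and a chain number, which gave 44 genes of 29621 in the files. They were split by protein architecture into 11 fibrillar collagens, 8 basement membrane collagens and 25 other collagens. KPC mice carry p48-Cre, a Cre-activated oncogene, and Trp53 fl/fl, a floxed tumour suppressor gene. KPC-OG mice carry all of these alleles and also R26tm1(LSL-OG), a Cre-inducible allele at the R26 locus, so the OG allele is the labelled difference between the groups. The p48 gene (Ptf1a) drives Cre in the pancreatic epithelial lineage, whereas whole pancreas also holds connective tissue, vessels and immune cells. Each group had 4 libraries, made from total RNA after ribosomal depletion, and the titles number them 1 to 4. Whether the libraries stand for separate mice is not labelled, so p-values measure only the spread between these libraries.

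Collagens are the main structural proteins of the extracellular matrix. Their alpha chains wind around one another into a rope-like helix, which requires a glycine at a fixed interval along the chain. Fibrillar collagens pack side by side into tensile fibres, and in the fibrous tissue that surrounds diseased pancreatic epithelium they are made mainly by fibroblasts and activated stellate cells. Basement membrane collagens form or anchor the thin sheet beneath epithelium and endothelium, and the other collagens decorate fibrils, form beaded filaments and networks, or span the cell membrane.

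The coding sequences showed a feature that sets the fibrillar class apart from the others. A glycine triplet was counted as a glycine codon followed by 2 codons for other residues or glycine, and the longest unbroken run of triplets was read from 1 coding transcript of each gene in GENCODE M21. Stretches of 72 bases from a fibrillar chain, a network-forming basement membrane chain and the anchoring fibril chain are shown, because these genes stand for the 3 courses described below. Glycine codons are in capitals.
Col1a2: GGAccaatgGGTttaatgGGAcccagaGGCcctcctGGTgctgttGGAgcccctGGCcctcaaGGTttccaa
Col4a1: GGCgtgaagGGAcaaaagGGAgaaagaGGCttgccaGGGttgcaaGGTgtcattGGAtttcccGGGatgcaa
Col7a1: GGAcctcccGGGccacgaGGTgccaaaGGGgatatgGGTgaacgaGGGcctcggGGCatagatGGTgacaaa
These stretches cover bases 289 to 360 of the Col1a2 coding sequence, 127 to 198 of Col4a1 and 7552 to 7623 of Col7a1. Each stretch opens its gene's longest run, so the regular spacing of glycine codons in it was fixed by that choice. The fibrillar class differs in how long the pattern goes on. The longest run in a fibrillar member had a median of 338 triplets and ranged from 216 to 344. It had a median of 41 triplets in basement membrane members, whose helices are interrupted, with a range of 30 to 66. The median was 52 in the other members, with 113 as the longest, so run length did not separate them from basement membrane members. The repeat did not make the genes hard to tell apart by short sequences. A median of 0.514% of a member's 20-base words occurred in a transcript of any other GENCODE M21 gene, collagen or not. The largest such share was 5.08%, in Col6a6.

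Library depth and composition differed between the groups, and the scaling follows from that. Totals of estimated reads were 7373286 to 11292570 in KPC and 13671606 to 18292115 in KPC-OG. Reads assigned to Lars2, a mitochondrial leucyl-tRNA synthetase gene, took 20.8% to 30% of the gene-level reads of KPC libraries and 3.73% to 7.11% of those of KPC-OG libraries. Levels below are therefore CPM, read counts relative to library size, scaled by TMM, a method that aligns the typical gene between libraries, and each fold change is relative to that typical gene. Without TMM, scaling by library size raised the median gene's log2 fold change by 1.74. Then 37 of 38 collagens were called higher, as were 91.7% of all tested genes, so that count is near the rate of all genes. Markers of acinar cells fell in 10 of 11 cases (90.9%, against 16.6% of all tested genes). Their summed CPM was 272354 to 518170 in KPC and 40186 to 135551 in KPC-OG. Liver markers stood apart in KPC-OG 2 and KPC-OG 3, with summed CPM of 237 and 286 against 13.5 to 29.6 in the other libraries. Without those 2 libraries 25 collagens were called higher and 1 lower.

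Collagen genes were called higher in KPC-OG more often than lower, by counts that depend on the scaling. Of the 44 members 38 passed the filter on low counts, and of these 22 rose, 1 fell and 15 did not pass the test (edgeR quasi-likelihood, Benjamini-Hochberg adjusted p under 0.05 over 14267 genes). Among all genes tested, 17.4% were called higher and 16.6% lower, or 34.1% in either direction. Of the 22 called higher, 8 did not reach the filter's count level in all KPC libraries and passed it through KPC-OG (Col4a6, Col6a5, Col8a2, Col10a1, Col11a1, Col24a1, Col26a1 and Col28a1). Of the 22 members that did reach that level in every KPC library, 14 rose and 1 fell, and 15.6% of all genes that did so were called higher. In TPM re-centred on the median gene, settings chosen after seeing the data, 9 collagens were called higher and 9 lower with a pseudocount of 1, and 6 higher and 1 lower with 0.1. The median log2 fold change was 1.45 over the tested collagens and 0.09 over all tested genes. In bulk tissue, fewer cells of a type and less RNA per cell cannot be told apart, nor can more cells and more RNA. Of the 38 tested members 17 had every KPC-OG library above every KPC library (44.7%), as did 17.6% of all tested genes.

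**Figure D1:**
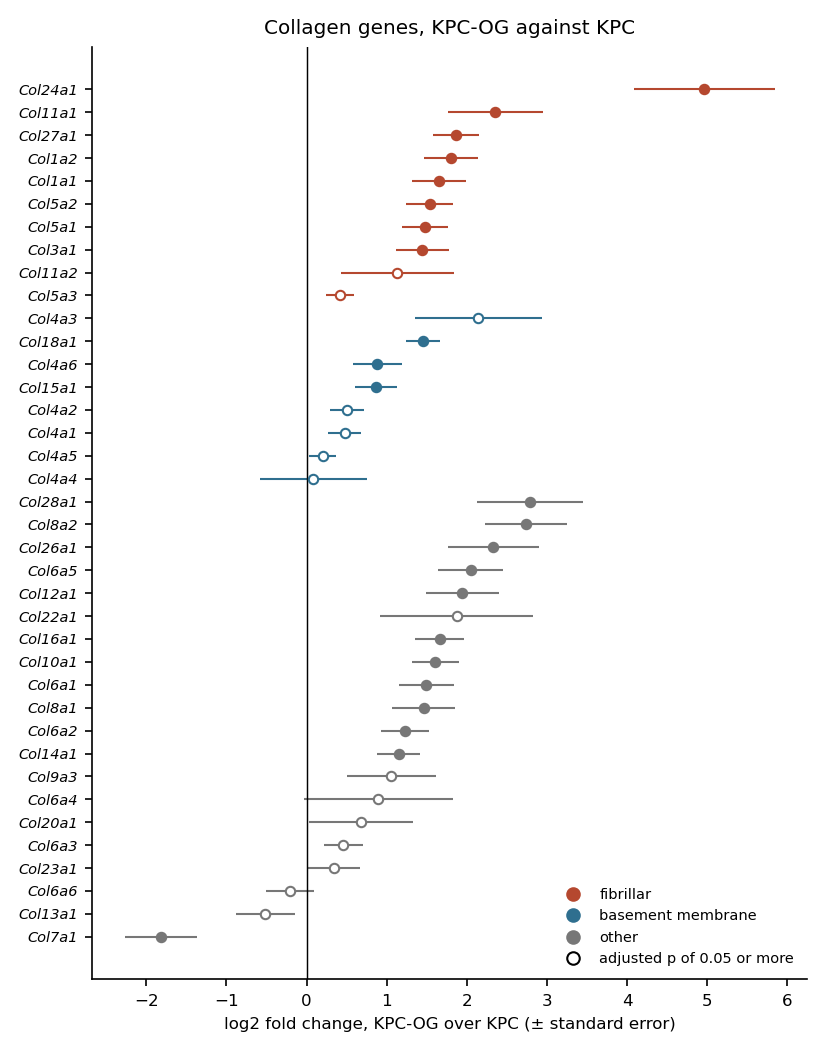
Log2 fold change of KPC-OG over KPC for the 38 tested collagens, with bars for the standard error, ordered by class. Filled points passed the test; 22 lie to the right of zero, and Col7a1 is the single filled point to the left.

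The fibrillar collagens were the most abundant class and the one with the largest share of members called. Of 10 tested members 8 rose (80%, against 17.4% of all tested genes) and none fell, with a median log2 fold change of 1.6. The tissue's main fibre-forming chains are among them, those of types I, III and V. Summed over the class, the TMM-scaled CPM of the KPC libraries was 967, 1265, 920.0 and 1219, and that of the KPC-OG libraries was 4560.5, 2558, 1608 and 4085. Every KPC-OG library lay above every KPC library, and KPC-OG 3 lay nearest to them.

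Col3a1 encodes the chain of type III collagen, which forms fine reticular fibres. It lies at chr1:45311538-45349706 on the plus strand. Its level was 502, 715, 499 and 669 CPM in the KPC libraries. It was 2321, 1319, 850.4 and 2003 CPM in the KPC-OG libraries, so the groups did not overlap. Col3a1 rose 2.72-fold, a log2 fold change of 1.44 with a standard error of 0.33 (edgeR adjusted p = 0.00785).

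Type I collagen, the chief protein of fibrous scar, is built from the products of Col1a1 and Col1a2. Col1a2 (chr6:4504814-4541544) measured 201, 215, 174 and 243 CPM in KPC and 1065, 591, 325 and 924 CPM in KPC-OG. Its rise was 3.49-fold, with a log2 fold change of 1.80 and a standard error of 0.34 (edgeR adjusted p = 0.00325). Col1a1 (chr11:94936224-94953042) measured 146, 193, 145 and 179 CPM in KPC and 735, 395, 239.7 and 724 CPM in KPC-OG. It rose 3.15-fold (log2 1.66 ± 0.34 SE, edgeR adjusted p = 0.0047). Both chains were highest in KPC-OG 1 and KPC-OG 4, and neither gene's groups overlapped. The assembled protein uses the chains in a fixed proportion, and the ratio of Col1a1 to Col1a2 in TPM, a level per transcript length, was 0.716 ± 0.0494 for KPC against 0.674 ± 0.0234 for KPC-OG (SD, n = 4 each), with overlapping groups.

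Type V collagen starts new fibrils and limits their width, and 2 of its 3 chains rose. Col5a2 (chr1:45374321-45503282, next to Col3a1 on the opposite strand) measured 42.4, 49.4, 32.6 and 51.0 CPM in KPC and 175, 93.7, 73.1 and 168 CPM in KPC-OG. It rose by a log2 fold change of 1.54 ± 0.29 (SE, edgeR adjusted p = 0.00364). Col5a1 rose by 1.48 ± 0.29 on the log2 scale (edgeR adjusted p = 0.00432). Its level ranged from 47.0 to 64.4 CPM in KPC and from 84.1 to 214 CPM in KPC-OG, without overlap. Col5a3, the third chain of the type, had a log2 fold change of 0.41 ± 0.17 (SE) that did not pass the test (edgeR adjusted p = 0.089), and its groups overlapped.

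The minor fibrillar chains were present at low levels. Col27a1 rose by 1.87 ± 0.29 on the log2 scale (edgeR adjusted p = 0.00146), from 2.36 to 7.43 CPM in KPC to between 12.6 and 18.9 CPM in KPC-OG. Col11a1, a chain of cartilage fibrils that fibroblasts of fibrous tumours also express, rose by 2.36 ± 0.60 (edgeR adjusted p = 0.0131) but passed the count filter through KPC-OG alone. It stayed under 6 CPM in every library. Col24a1 was counted once over the 4 KPC libraries and 220 times over the 4 KPC-OG libraries, a ratio of normalised counts of 37.0 with an exact 95% interval of 6.58 to 1469 that covers counting error only. The gene passed the count filter through KPC-OG alone, so its edgeR adjusted p of 0.00248 is given as a description, and the fitted log2 fold change of 4.97 depends on the prior count and is no bound. Col11a2 did not pass the test (log2 1.13 ± 0.70, edgeR adjusted p = 0.239), and Col2a1, the cartilage collagen, had no count in any library.

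**Figure D2:**
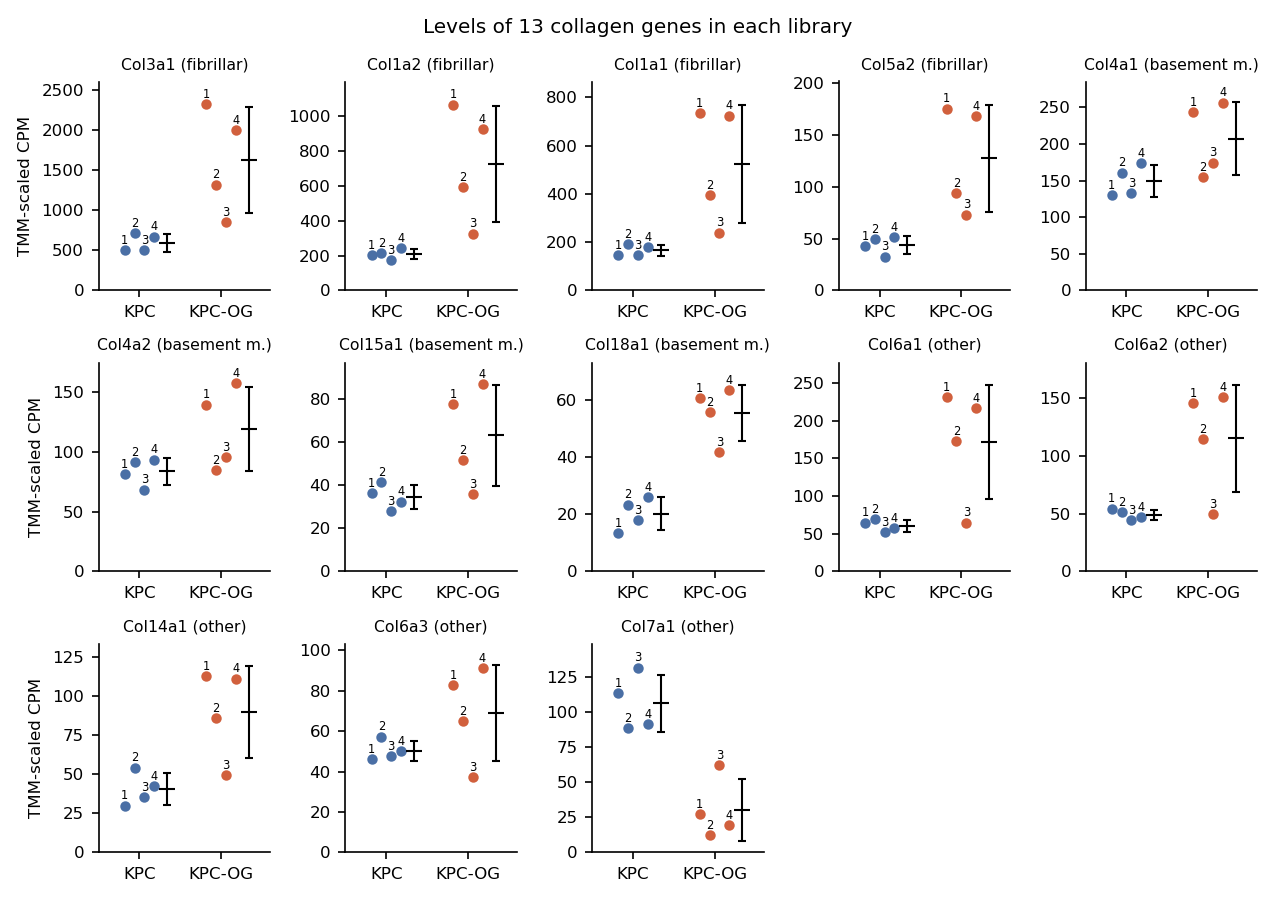
TMM-scaled CPM of 13 collagens in each library, numbered by replicate, with the mean and SD of each group as a bar at the right; vertical axes start at zero and differ between panels. KPC-OG 1 and KPC-OG 4 are high and KPC-OG 3 low for the fibrillar genes, while Col7a1 runs the other way.

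The promoters of Col3a1 and Col5a1 from the fibrillar class are printed with that of Col7a1, because the first 2 genes moved together and the third moved the other way. Each is the 250 bases before the annotated start from RefSeq (GRCm38.p6), read 5′ to 3′ on the plus strand. Capitals mark the TATAAA element, the CCAAT box and the GGGCGG box, each searched on both strands, and no marked motif overlaps another.
Col3a1: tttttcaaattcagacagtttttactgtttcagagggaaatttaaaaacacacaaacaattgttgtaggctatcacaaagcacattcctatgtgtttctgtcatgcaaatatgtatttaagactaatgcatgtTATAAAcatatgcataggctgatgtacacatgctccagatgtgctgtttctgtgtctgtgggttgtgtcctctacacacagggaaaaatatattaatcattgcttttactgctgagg
Col5a1: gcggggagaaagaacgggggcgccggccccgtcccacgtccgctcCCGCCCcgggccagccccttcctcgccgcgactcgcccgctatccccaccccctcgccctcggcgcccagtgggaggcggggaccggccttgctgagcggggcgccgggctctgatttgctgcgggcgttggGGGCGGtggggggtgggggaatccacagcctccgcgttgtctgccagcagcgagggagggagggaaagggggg
Col7a1: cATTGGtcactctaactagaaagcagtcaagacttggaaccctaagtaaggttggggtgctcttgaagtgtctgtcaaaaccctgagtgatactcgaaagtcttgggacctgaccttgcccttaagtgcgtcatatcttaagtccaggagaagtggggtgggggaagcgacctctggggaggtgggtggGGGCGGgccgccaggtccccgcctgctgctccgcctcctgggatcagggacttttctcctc
These windows lie at chr1:45311288-45311537, chr2:27886175-27886424 and chr9:108953336-108953585. The Col3a1 window held TATAAA and no CpG dinucleotide, while the Col5a1 window held 28 CpG dinucleotides and GGGCGG without TATAAA or CCAAT. The Col7a1 window held CCAAT, as its complement ATTGG, and GGGCGG, with 7 CpG dinucleotides. Of the 44 members 35 had an entry in the promoter table. GGGCGG occurred in 21 of these 35 (60%) and in 32.9% of all 27025 windows of that length, CCAAT in 12 of 35 (34.3%) and in 34.5%, and TATAAA in 5 of 35 (14.3%) and in 13%. The collagen windows had a median GC content of 59.6% against 52% for all genes, and a median of 10 CpG dinucleotides against 6. The part of this base composition in the GGGCGG share was not tested. A match describes the letters and is not evidence of a bound site.

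The basement membrane collagens had lower fold changes than the fibrillar class, a difference between classes that was not tested. Of 8 tested members 3 rose (Col18a1, Col15a1 and Col4a6) and none fell, with a median log2 fold change of 0.69. The share that rose was 37.5%, against 17.4% of all tested genes. The 6 chains of type IV collagen, the network former of the class, had a median of 0.49 with 1 call. That call is 16.7% of the type IV chains, near the share of all genes. Summed over the class, the TMM-scaled CPM was 272, 331, 262 and 339.6 in KPC and 539.6, 366, 363 and 585 in KPC-OG. The groups did not overlap, although KPC-OG 2 and KPC-OG 3 lay close to the highest KPC library.

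Col4a1 and Col4a2 encode the chains of the common type IV network and start head to head on chromosome 8, with 22 bases of overlap on opposite strands. The labels do not state strand, so reads in that overlap cannot be told apart. Col4a1 (chr8:11198423-11312826) measured 130 to 174 CPM in KPC and 244, 155, 174 and 256 CPM in KPC-OG. Its log2 fold change of 0.47 ± 0.20 (SE) did not pass the test (edgeR adjusted p = 0.0918), and the groups overlapped. Col4a2 (chr8:11312805-11449287) measured 81.7, 91.5, 68.5 and 93.5 CPM in KPC and 139.6, 84.6, 95.4 and 158 CPM in KPC-OG, with a log2 fold change of 0.51 ± 0.21 (SE, edgeR adjusted p = 0.0894). For both genes KPC-OG 1 and KPC-OG 4 lay above all KPC libraries and KPC-OG 2 lay within them. The TPM ratio of Col4a1 to Col4a2 was 1.69 ± 0.178 for KPC against 1.52 ± 0.138 for KPC-OG (SD, n = 4 each), with overlap.

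The 4 rarer type IV chains, known from kidney glomerulus and other specialised membranes, were low. Col4a6 rose by 0.88 ± 0.30 on the log2 scale (edgeR adjusted p = 0.045), and this call was lost under 14 of 17 alternative settings based on counts, including the omission of any 1 library. Its level was 0.796 to 1.72 CPM in KPC and 2.31 to 2.98 CPM in KPC-OG, and it passed the count filter through KPC-OG. Col4a3 (log2 2.14 ± 0.79, edgeR adjusted p = 0.06), Col4a4 (0.08 ± 0.67) and Col4a5 (0.20 ± 0.17) did not pass the test. Col4a3 shares 563 exon bases with a transcript on the opposite strand, so its low counts are uncertain. The direction of Col4a4 turned without KPC 4 or without KPC-OG 4.

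Types XV and XVIII carry sugar chains, sit where basement membrane meets the stroma, and release endostatin-like fragments that restrain vessel growth. Col18a1 (chr10:77052178-77166548) measured 13.4, 23.5, 18 and 26.2 CPM in KPC and 60.9, 55.9, 41.8 and 63.6 CPM in KPC-OG. It rose 2.73-fold (log2 1.45 ± 0.21 SE, edgeR adjusted p = 0.00124), had the smallest adjusted p of the 44 members, and showed no overlap between groups. Col15a1 (chr4:47208161-47313167) measured 36.5, 41.3, 28.1 and 32.4 CPM in KPC and 77.8, 51.8, 36.1 and 86.9 CPM in KPC-OG. It rose by 0.87 ± 0.26 (SE, edgeR adjusted p = 0.028), with KPC-OG 3 inside the KPC range. The Col15a1 call was lost under 7 of 17 alternatives, among them the omission of replicate 1, 3 or 4 of KPC or of replicate 1 or 4 of KPC-OG, and without any 1 of these libraries 1 basement membrane member was called in place of 3. Relative to Col4a1, Col18a1 stood at a TPM ratio of 0.192 ± 0.011 for KPC against 0.424 ± 0.0626 for KPC-OG (SD, n = 4 each), without overlap.

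The balance between fibrillar and basement membrane collagen was read within each library, where scaling between libraries plays no part. The ratio of summed TPM was 4.58, 5.76, 4.58 and 5.83 in KPC and 14.7, 11.3, 6.47 and 11.2 in KPC-OG. The groups did not overlap, and the mean log2 ratios differed by 1.02, or 2.03-fold. With reads in place of TPM the ratio was 3.5 to 3.82 in KPC and 4.43 to 8.45 in KPC-OG, again without overlap. At the level of single chains, the ratio of Col1a2 to Col4a1 was 1.78 ± 0.122 for KPC against 4.34 ± 1.40 for KPC-OG (SD, n = 4 each). These ratios were not tested, since the classes were set with earlier results of the data known.

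As shares of collagen mRNA per length, the fibrillar class made up 68.7% ± 4.33 for KPC against 80.5% ± 3.84 for KPC-OG (SD, n = 4 each). Basement membrane collagens made up 13.3% ± 0.983 and 7.96% ± 2.55, and the other collagens 17.9% ± 3.38 and 11.5% ± 1.53 (SD, n = 4 each). None of these shares overlapped between the groups. Col3a1 alone gave 45.8% ± 5.11 of KPC collagen TPM and 56.7% ± 3.92 of that in KPC-OG (SD, n = 4 each). Part of its TPM came from short transcripts, which weigh heavily per length: the full-length Col3a1-201 held 56.1% of Col3a1 TPM in KPC and 37.0% in KPC-OG.

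**Figure D3:**
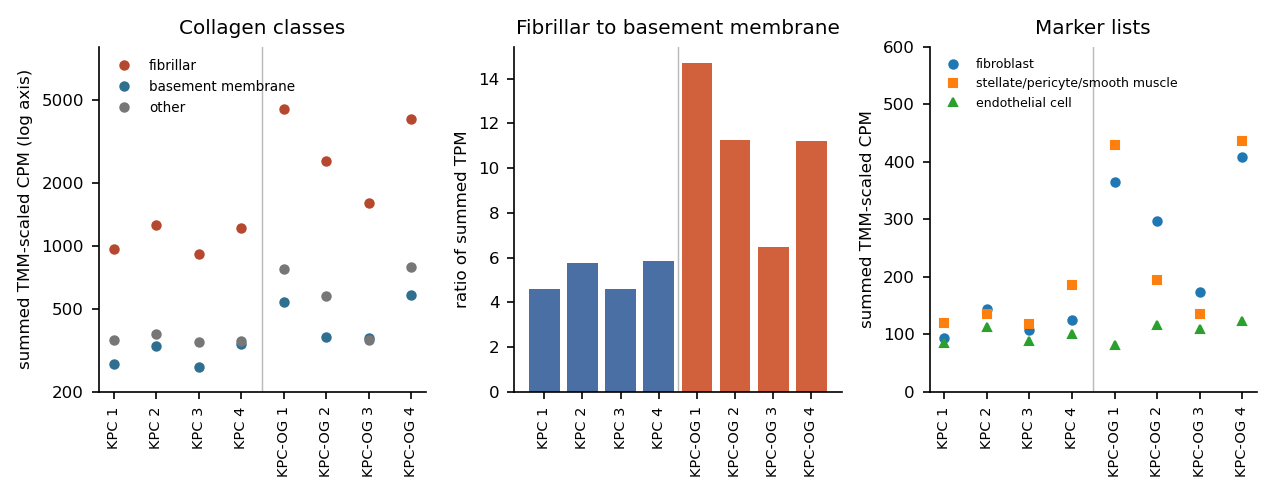
Left, summed TMM-scaled CPM of the 3 classes in each library on a log axis; middle, the ratio of fibrillar to basement membrane TPM; right, summed TMM-scaled CPM of 3 marker lists. The ratio is 4.58 to 5.83 in KPC and 6.47 to 14.7 in KPC-OG, and KPC-OG 3 is the lowest KPC-OG library for fibrillar collagen, for the ratio and for fibroblast and smooth muscle markers.

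Markers of several cell types also differed between the groups, those of fibroblasts among them. Of 9 fibroblast markers 8 were tested and 7 rose, and their summed CPM was 93.4 to 144 in KPC and 174 to 409 in KPC-OG. Of 9 markers of stellate cells, pericytes and smooth muscle 3 rose, with sums of 117 to 185 in KPC and 429.5, 194, 136 and 437 in KPC-OG. Of 9 endothelial markers 2 rose, with sums of 84.6 to 112 in KPC and 81.8 to 123 in KPC-OG. No marker of these 3 lists was at 0 in all libraries. All 6 macrophage markers rose, with sums of 117 to 185 CPM in KPC and 259.9 to 382 CPM in KPC-OG. Of 8 duct markers 5 rose and 1 fell, with sums of 249 to 343 CPM in KPC and 400.3 to 719 CPM in KPC-OG. As shares of tested markers, 87.5% of the fibroblast, 33.3% of the stellate, pericyte and smooth muscle, 22.2% of the endothelial and 62.5% of the duct markers rose. Among all tested genes 17.4% rose, so the endothelial share was near that of all genes. Of the duct markers 12.5% fell, against 16.6% of all tested genes. The part of these cells in the collagen values was not tested.

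The KPC-OG libraries also differed among themselves. Of the 22 members called higher, KPC-OG 3 was the lowest KPC-OG library for 16 and KPC-OG 1 or KPC-OG 4 the highest for 20. Among all genes called higher KPC-OG 3 was lowest for 64.6%, so the order of the libraries is no result about collagens. The acinar marker sum, 135551 CPM, was also highest in KPC-OG 3 among the KPC-OG libraries. Without KPC-OG 3, 26 collagens were called higher and 1 lower.

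Type VI collagen forms beaded filaments around cells and near basement membranes from the products of Col6a1, Col6a2 and a longer partner chain such as that of Col6a3. Of its 6 genes 3 rose (Col6a1, Col6a2 and Col6a5, the last passing the count filter through KPC-OG), with a median log2 fold change of 1.06. The share that rose was 50%, against 17.4% of all tested genes. Col6a1 (chr10:76708792-76726168) measured 64.7, 69.3, 51.7 and 57.1 CPM in KPC and 231, 173, 64.7 and 217 CPM in KPC-OG. Its rise was 1.5 ± 0.34 on the log2 scale (SE, edgeR adjusted p = 0.0087). Col6a2 (chr10:76595762-76623630) measured 44.3 to 54.2 CPM in KPC and 146, 115, 49.9 and 151 CPM in KPC-OG, and rose by 1.23 ± 0.30 (SE, edgeR adjusted p = 0.0113). In both genes 3 KPC-OG libraries were high and KPC-OG 3 fell within the KPC range.

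Col6a3 (chr1:90765923-90843971) did not pass the test. It measured 46.2, 57.3, 47.5 and 50.3 CPM in KPC and 83.0, 64.9, 37.5 and 91.3 CPM in KPC-OG, a log2 fold change of 0.46 ± 0.24 (SE, edgeR adjusted p = 0.168). The TPM ratio of Col6a3 to Col6a1 was 0.486 ± 0.0584 for KPC against 0.226 ± 0.0531 for KPC-OG (SD, n = 4 each), without overlap, so the long chain was lower relative to Col6a1 in every KPC-OG library. The ratio of Col6a1 to Col6a2 was 1.21 ± 0.0801 and 1.44 ± 0.104 (SD, n = 4 each), and these groups overlapped. Col6a5, an alternative long chain at a far lower level, rose by 2.05 ± 0.40 (SE, edgeR adjusted p = 0.00416) from 0.265 to 2.36 CPM in KPC to between 4.26 and 8.95 CPM in KPC-OG. Because Col6a5 passed the count filter through KPC-OG, its adjusted p is given as a description. Col6a4 and Col6a6 did not pass the test, with log2 fold changes of 0.90 ± 0.92 and -0.21 ± 0.30 (SE). The direction of Col6a6 turned with library sizes alone and without KPC-OG 3.

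Fibril-associated collagens with interrupted helices (FACIT) lie on the surface of fibrils. Of 9 such genes 6 were tested and 3 rose (Col14a1, Col12a1 and Col16a1). These are 50% of the tested genes, against 17.4% of all tested genes. Col14a1 (chr15:55307750-55520803) measured 30, 54.3, 35.6 and 42.2 CPM in KPC and 113, 86.1, 49.7 and 111 CPM in KPC-OG. Its log2 fold change was 1.15 ± 0.27 (SE, edgeR adjusted p = 0.01), with KPC-OG 3 below the highest KPC library. Col12a1 rose by 1.95 ± 0.46 (edgeR adjusted p = 0.0124), from 5.92 to 19.8 CPM in KPC to between 25.9 and 75.2 CPM in KPC-OG, and Col16a1 by 1.66 ± 0.31 (edgeR adjusted p = 0.0037). Of the reads of Col16a1, 67.2% in KPC and 45.1% in KPC-OG were assigned to transcripts not annotated as coding. Col9a3, Col20a1 and Col22a1 were low and did not pass the test, with log2 fold changes of 1.06, 0.68 and 1.87 and standard errors of 0.56, 0.65 and 0.96.

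All 3 genes of the short-chain collagens, which form hexagonal networks, were called higher (100%, against 17.4% of all tested genes). Col8a2 and Col10a1 did not reach the filter's count level in all KPC libraries and passed it through KPC-OG. Their adjusted p-values are therefore given as a description. Col8a2 and Col8a1 encode type VIII, found around vessels and in fibrous tissue, and Col10a1 encodes type X, known from growing cartilage. Col8a2 rose by 2.74 ± 0.51 (edgeR adjusted p = 0.00355), from 1.06 to 1.72 CPM in KPC to between 2.95 and 15.9 CPM in KPC-OG. Col10a1 rose by 1.61 ± 0.30 (edgeR adjusted p = 0.00305) and Col8a1 by 1.46 ± 0.39 (edgeR adjusted p = 0.0187). The Col8a1 call was lost without KPC 1, without KPC 3 or with limma-voom, with an adjusted p of at most 0.0739. Cartilage and bone markers were near 0: of 7 markers only Comp, a protein of cartilage matrix and tendon, passed the count filter. It did so through KPC-OG, with at most 0.188 CPM in KPC and between 0.917 and 3.29 CPM in KPC-OG. Its call as higher (log2 5.0 ± 0.97 SE, edgeR adjusted p = 0.00377) is therefore given as a description. The fitted fold change depends on the prior count. The part of such cells in the Col10a1 and Col11a1 values was not tested.

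Transmembrane collagens, which link cells to matrix, showed no call in either direction. Col13a1 and Col23a1 were tested and had log2 fold changes of -0.51 ± 0.37 and 0.34 ± 0.32 (SE), and both stayed under 3 CPM in every library. The direction of Col13a1 turned with library sizes alone. Col17a1, the hemidesmosome collagen, was not tested, with 3 counts over KPC and 50 over KPC-OG, and neither was Col25a1. Col25a1 had no count in KPC and 13, 20, 0 and 15 counts in KPC-OG, so the groups overlapped. Pooled, its level in KPC-OG (48 counts) was at least 2.69-fold higher, taking 3 counts summed over KPC (0.148 CPM) as the detection floor. Of its KPC-OG reads, 55.0% were assigned to transcripts not annotated as coding. The other members that failed the filter were Col9a1, Col9a2 and Col19a1, with 2, 63 and 14 counts over the 4 KPC-OG libraries and 0, 1 and 2 over the 4 KPC libraries.

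Col28a1 and Col26a1 belong to none of these groups, and both passed the count filter through KPC-OG alone. Col28a1, known from peripheral nerve, rose by 2.79 ± 0.67 (edgeR adjusted p = 0.0104), from at most 1.18 CPM in KPC to between 2.65 and 6.35 CPM in KPC-OG. Of 6 Schwann cell and nerve markers 5 were tested. Of these 2 rose (40%) and 1 fell (20%), against 17.4% and 16.6% of all tested genes. The sum of the 6 markers was lower in KPC-OG (15.3 to 18.8 CPM) than in KPC (25.6 to 36.1 CPM). Col26a1 rose by 2.33 ± 0.57 (edgeR adjusted p = 0.0106), but 99.0% of its reads in KPC-OG and all in KPC fell on transcripts not annotated as coding. Coding Col26a1 transcripts therefore were not measured to any useful depth.

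Col7a1 was the single collagen that fell. It encodes the anchoring fibril collagen that fastens the basement membrane of stratified epithelia to the tissue below. The gene lies at chr9:108953586-108984875 on the plus strand and shares 36 exon bases with the microRNA gene Mir711 on the same strand. It measured 114, 88.8, 132 and 91.7 CPM in KPC and 27.4, 12.3, 62.1 and 19.6 CPM in KPC-OG, and the groups did not overlap, as for 17% of all tested genes with every KPC-OG library below every KPC library. Its log2 fold change was -1.82 ± 0.45 (SE, edgeR adjusted p = 0.0142), or 0.283 of the KPC level.

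The size of the Col7a1 difference depends on the scaling. In TPM it was 11.9, 10.5, 14.4 and 8.92 in KPC and 9.80, 5.70, 11.1 and 8.40 in KPC-OG, and these ranges overlap. With library sizes alone its log2 fold change was -0.28 and the call was lost, while it stayed below 0. Within the family the contrast did not depend on scaling: Col7a1 made up 5.31%, 2.46%, 5.35% and 2.59% of collagen TPM in KPC and 0.228%, 0.201%, 1.26% and 0.173% in KPC-OG, without overlap. Lars2, which fell by 3.78 on the log2 scale, had its highest KPC-OG value in the same library as Col7a1, with 57664 CPM in KPC-OG 3 against 18002 to 31383 CPM in the other KPC-OG libraries. The summed acinar markers were also highest there, although Ctrb1 was not (38395 CPM in KPC-OG 1 and 23818 CPM in KPC-OG 3), and the part of either in the Col7a1 values was not tested.

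**Figure D4:**
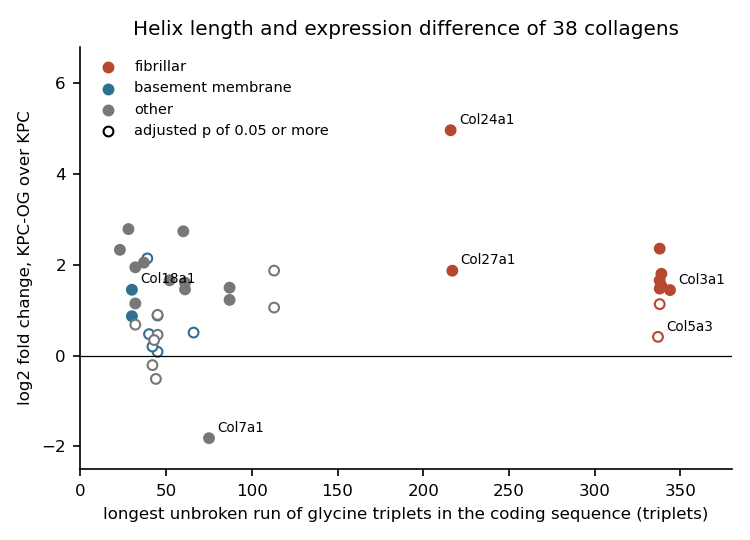
Longest unbroken run of glycine triplets in the coding sequence against the log2 fold change of KPC-OG over KPC for the 38 tested collagens, coloured by class and filled where the test was passed. Fibrillar genes form the group with runs of 216 to 344 triplets, all above a fold change of zero. Among genes with shorter runs only Col7a1, Col13a1 and Col6a6 have negative values, and of these only Col7a1 passed the test.

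Among the non-fibrillar members, with runs of 113 triplets or fewer, log2 fold changes ran from -1.82 to 2.79, and run length was not tested against fold change. Within the fibrillar class, Col5a3 with 337 triplets had a log2 fold change of 0.41 and Col1a2 with 339 triplets had 1.80. Genes share libraries, so this is a description across genes.

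The enzymes that prepare collagen chains in the cell gave mixed directions. Of 19 tested genes for hydroxylation, folding and export 9 rose and 3 fell, with a median log2 fold change of 0.50. These are 47.4% and 15.8%, against 17.4% and 16.6% of all tested genes, so the share that fell was near that of all genes. Fkbp10, a prolyl isomerase needed for collagen cross-linking, rose by 1.77 ± 0.31 (edgeR adjusted p = 0.00239), and Serpinh1, the collagen-specific chaperone HSP47, rose by 1.35 ± 0.28 (edgeR adjusted p = 0.00564). The 3 that fell also serve secretion at large. P4hb, which is protein disulfide isomerase as well as a subunit of prolyl hydroxylase, fell by 1.47 (log2), with means of 1313 ± 173 CPM in KPC and 472 ± 120 CPM in KPC-OG (SD, n = 4 each; edgeR adjusted p = 0.00179). Mia3, an export receptor for bulky cargo, fell by 1.25 (edgeR adjusted p = 0.00164), and Ppib, a cyclophilin of the endoplasmic reticulum, fell by 0.69 (edgeR adjusted p = 0.0104). P4hb was highest within KPC-OG in KPC-OG 3, the library with the highest acinar marker sum, and the part of acinar cells in it was not tested.

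Outside the cell, genes that trim and cross-link procollagen rose in 8 of 13 tested cases (61.5%, against 17.4% of all tested genes) and fell in none. Bmp1, the C-propeptidase, rose from 12 ± 1.71 to 31.2 ± 6.95 CPM (SD, n = 4 each; log2 1.38, edgeR adjusted p = 0.000891). Adamts2, the N-propeptidase, rose by 1.67 (edgeR adjusted p = 0.00184), and Pcolce, which enhances Bmp1, rose by 1.28 (edgeR adjusted p = 0.00253). Small proteoglycans that coat fibrils rose in 6 of 8 tested cases (75%) and fell in none. They were led by Bgn (log2 1.86), Fmod (2.62) and Dcn (1.52), with edgeR adjusted p of 0.00156, 0.0022 and 0.00329. Dcn measured 89.0 to 108 CPM in KPC and 127 to 368 CPM in KPC-OG, so its groups did not overlap.

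Collagen receptors were divided. Of 10 tested genes 4 rose (40%) and 2 fell (20%), against 17.4% and 16.6% of all tested genes. The share that fell was thus near that of all genes. Itga2, which pairs with Itgb1 to bind type I collagen, rose by 1.35 ± 0.31 (edgeR adjusted p = 0.00868), and Mrc2, the endocytic receptor that clears collagen fragments, rose by 1.14 ± 0.25 (edgeR adjusted p = 0.00611). Itga10 fell by 2.0 (log2), from 5.64 ± 0.66 to 1.42 ± 0.285 CPM (SD, n = 4 each; edgeR adjusted p = 0.000684), and Itga1, whose integrin favours type IV collagen, fell by 0.62 (edgeR adjusted p = 0.0102). The matrix-sensing kinases Ddr1 and Ddr2 had log2 fold changes of 0.38 and 0.41 that did not pass the test.

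Degradation genes and their inhibitors mostly rose. Of 9 tested genes 6 rose (66.7%) and 1 fell (11.1%), against 17.4% and 16.6% of all tested genes. Ctsk, an acid collagenase, rose by 2.46 ± 0.35 (edgeR adjusted p = 0.0011), Mmp14, a membrane collagenase, by 1.58 ± 0.26 (edgeR adjusted p = 0.00201), and the inhibitor Timp2 by 0.90 ± 0.17 (edgeR adjusted p = 0.00307). Fap, a protease that marks activated fibroblasts, fell by 0.63 (edgeR adjusted p = 0.0458), from 4.38 ± 0.616 to 2.84 ± 0.325 CPM (SD, n = 4 each), against the direction of 7 of the 8 tested fibroblast markers. Proteins that build the basement membrane with type IV collagen rose in 8 of 16 cases (50%) and fell in none. Sparc, a collagen-binding protein, rose by 1.41 ± 0.26 (edgeR adjusted p = 0.00331) and Lama3, a laminin chain of epithelial membranes, by 1.54 ± 0.30 (edgeR adjusted p = 0.00448).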

How the data were processed

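Bulk RNA-seq of 8 mouse pancreas samples, 4 KPC and 4 KPC-OG, was grouped by sample titles. Per the file headers, the authors made estimated counts per transcript with Sailfish 0.6.3 (words of 20 bases, bias correction) on Ensembl release 76 cDNA. The deposited TPM values come from the same step. The submitters' processing notes also name STAR 2.0.4b, bcl2fastq, edgeR and limma, with no role given. Estimated counts were summed over all transcripts of each gene in GENCODE M21 (83827 of 86127 transcripts matched, 197 of them from collagens) and rounded. The build behind that cDNA set is not stated in the sources used here.

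All genes that passed filterByExpr (14267) were fitted with edgeR 4.0.16 quasi-likelihood in R 4.3.3 with TMM scaling, and p-values were adjusted by Benjamini-Hochberg over all of them, with a threshold of 0.05. TMM factors were 0.483 to 0.653 in KPC and 1.14 to 2.28 in KPC-OG, so low values are less precise in KPC. Class sums and ratios carry no test. The pipeline was tested on simulated data. No 2 libraries agreed within sampling noise (smallest chi-square over its degrees of freedom, 14.7).

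Members and lists were chosen with earlier results of these data known. Named members were the 4 highest in TPM of each class and any called against its class, and from each partner list up to 3 with the smallest adjusted p and any called in the rarer direction. Serpinh1, Ddr1 and Ddr2 were chosen after their values were seen. A gene that this rule names is not reported here. Alternatives changed the scaling, tool, filter, unit, transcripts, replicate block and libraries (limma 3.58.1, DESeq2 1.42.0).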

Additional observations from a re-analysis of the deposited data

Results flagged for a closer look

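Of 90 groups of 4 libraries with collagen values, 7 held 1 library far from the other 3 by Dixon's criterion, and chance flags about 1 in 20 groups. In KPC-OG 3, Col6a6 was 3.012 TMM-scaled CPM against 7.29 to 8.14 in the other KPC-OG libraries, and Col27a1 was 12.57 against 18 to 18.9. Col10a1 was 10.15 in KPC-OG 4 against 5.47 to 5.97, and Col20a1 was 0.8523 in KPC-OG 1 against 1.66 to 1.73. In KPC 4, Col8a1 was 12.33 against 5.57 to 6.11 in the other KPC libraries. Single KPC libraries held the group's whole signal for Col22a1 (1.061 in KPC 3) and for Col24a1 (0.191 in KPC 1, which is 1 count), with the other 3 at 0.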

How the results depend on the processing

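Of the 23 collagens called, 13 kept direction and call under all 17 count-based settings other than library sizes alone, and 10 lost the call under at least 1. Besides Col4a6, Col15a1 and Col8a1, these were Col6a1, Col6a2, Col12a1 and Col14a1 with re-centred library sizes, and Col8a2, Col11a1 and Col26a1 with limma-voom. Called higher were 22 collagens with RLE size factors, 23 with DESeq2, 16 with limma-voom, 21 with no filter and 20 with coding transcripts. Whether replicate numbers pair the libraries stayed unclear. Deviations of KPC and KPC-OG libraries with the same number correlated at 0.286, 0.295, 0.0714 and 0.0582 for replicates 1 to 4. The highest correlation with a differently numbered library was -0.00591, 0.0312, 0.142 and 0.211. With a replicate block 21 were higher and 1 lower. Leaving out 1 library at a time gave 19 to 26 higher and 1 lower, with 1 to 4 basement membrane members called. Library sizes alone, log2(TPM + 1) and log2(TPM + 0.1) gave 37, 35 and 36 higher and 0 lower (basement membrane 8 under each, other collagens 19, 17 and 18). The same settings called 91.7%, 90.1% and 89.8% of all tested genes higher. Library sizes re-centred on the median gene gave 16 higher, with 1 basement membrane and 7 other members, and limma-voom 1 basement membrane member. Alternatives chosen after seeing the data were TPM values re-centred on the median gene. With pseudocount 1 they gave 9 higher and 9 lower (basement membrane 1, other 2), and with 0.1 they gave 6 higher (fibrillar 1, basement membrane 1, other 4).

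Log2 differences of class sums were 1.451 fibrillar, 0.5956 basement membrane and 0.7353 other. They were 2.828, 1.973 and 2.112 without reads assigned to Lars2, 3.359, 2.337 and 2.505 in TPM, and 3.146, 2.291 and 2.43 with library sizes alone. Directions turned, with re-centred log2(TPM + 1), for Col4a3 (-0.7611), Col4a4 (-0.8774), Col4a5 (-0.02731), Col4a6 (-0.4724), Col6a4 (-0.7093), Col6a5 (-0.07069), Col11a1 (-0.2863), Col11a2 (-0.5452), Col20a1 (-0.6565), Col22a1 (-1.065), Col23a1 (-0.6531) and Col24a1 (-0.5688). A pseudocount of 1 compresses such low genes. With 0.1 they turned for Col4a4 (-0.2447) and Col22a1 (-0.2983). Col4a4 turned without KPC 4 (-0.3787) and without KPC-OG 4 (-0.1277), in a range up to 0.4786 when 1 library is left out. Col6a6 turned with library sizes alone (1.632), log2(TPM + 1) (0.7954), log2(TPM + 0.1) (1.284) and without KPC-OG 3 (0.02556, with -0.3336 as the other end of that range), and Col13a1 under the first 3 of these (1.278, 0.4567 and 0.8557). The Col4a1 to Col4a2 log2 ratio difference was -0.1506, and 0.006016 with coding transcripts. The cause of these turns was not tested. Depth limits genes under about 1 CPM in KPC.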
